A study of Homo sapiens with 3 samples.

Results

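DDIT4 encodes REDD1, a stress-induced inhibitor of the growth kinase mTORC1, and its surroundings on chromosome 10 hold one of the densest clusters of HA-TFE3 binding summits in HK-2 cells. The locus was taken as bases 73950001 to 74150000 of chromosome 10 on hg19, a range of 200 kb around the dense window from base 74000001 to 74100000. The range was chosen by the number of shared summits of that window in these same lists, so its density is given as a description without a test. DDIT4 lies on the plus strand from base 74033678 to base 74035794. This position of the gene on hg19 came with the definition of the locus and was not checked against an annotation of that build. The locus held 36 of the 62287 summits of replicate 1 and 37 of the 72647 summits of replicate 2. Of these, 28 were shared, meaning that a summit of each list was the nearest of the other and both lay within 100 bp, out of 47396 shared summits in all.

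Binding was mapped with ChIP-seq, the sequencing of DNA pulled down with a protein, in HK-2, an established line of human kidney proximal tubule cells. The cells carried an HA-TFE3 gene inducible by doxycycline, and both ChIP libraries, replicates 1 and 2, were made by pulling down the HA tag. The labels describe culture for 24 h with or without doxycycline at 0.2 µg/ml but do not say which libraries were treated, and they do not say whether the inducible line is a single clone. The remaining sample, input DNA of the same cells, entered no comparison. A summit is the single base at the top of a bound region, with the authors' own score. No source used here gives the scale of the score, so scores are compared only within a list, as a percentile rank among all summits of that list. Whether the replicates were separate cultures is not stated, and their spread may be technical only.

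TFE3, a bHLH-zipper protein of the MiT/TFE family, is a transcription factor that binds E-box sequences, with CACGTG as the best known core, and drives lysosomal and stress genes. Active mTORC1 keeps TFE3 in the cytoplasm, and inhibition of mTORC1 lets it enter the nucleus. REDD1 restrains mTORC1 through the TSC1-TSC2 complex, and its gene is known to respond to hypoxia, glucocorticoids, DNA damage and the integrated stress response. In the RefSeq gene order of GRCh38.p14, DDIT4 is preceded by ASCC1, a subunit of a transcriptional coactivator complex, by ANAPC16, a subunit of the anaphase-promoting complex, and by the long non-coding RNA DDIT4-AS1. DNAJB12, a chaperone partner in the endoplasmic reticulum membrane, follows it. That table is on another build, so no summit was assigned to these genes.

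The bases just upstream of DDIT4 are shown because a shared summit of very high rank in both lists fell within this distance of the gene. The sequence is from RefSeq on GRCh38.p14, chr10:72273674-72273923, plus strand, and holds the 250 bases before the gene's start. Capitals mark the single ACGTG and, on the opposite strand, both matches to CCAAT, which read ATTGG here.
DDIT4 promoter: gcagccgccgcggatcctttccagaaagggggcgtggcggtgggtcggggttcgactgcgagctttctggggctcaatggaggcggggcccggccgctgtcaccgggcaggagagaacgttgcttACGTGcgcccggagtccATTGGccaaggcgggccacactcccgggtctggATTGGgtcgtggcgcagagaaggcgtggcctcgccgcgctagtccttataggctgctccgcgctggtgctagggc

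Both strands of these 250 bases were searched for CACGTG and its variant CATGTG, and for the general E-box, CANNTG, which includes both. They were also searched for ACGTG, which lies within CACGTG and is part of the site bound by hypoxia-inducible factors, and for CCAAT, the box bound by NF-Y. The DDIT4 promoter had 0 matches to CACGTG, against a match in 6.34% of the 35116 promoters of the same length. It had 0 matches to CATGTG, against 9.42% of all promoters with a match, and 0 to CANNTG, against 61.8%. The only ACGTG of the DDIT4 promoter lay 125 to 121 bases before the gene's start, and 18.5% of all promoters held one. Its CCAAT boxes lay 108 to 104 and 75 to 71 bases before the start, and 32.0% of all promoters had at least 1. GC content was 68.8% in the DDIT4 promoter and had a median of 58.0% over all promoters. These letters describe this stretch only, and say nothing of sequences outside it. Among the neighbours in the promoter table, SPOCK2, ASCC1, ANAPC16 and DNAJB12 also had 0 matches to CACGTG, as most promoters do. SPOCK2 comes before ASCC1 in the gene order. For CANNTG, SPOCK2 had 4 matches and ASCC1 had 2, and ANAPC16 and DNAJB12 had 0. The DDIT4-AS1 promoter had 1 match to ACGTG and 2 to CCAAT, the same numbers as that of DDIT4. Whether these are the same bases is not shown here.

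At the gene itself, a strong HA-TFE3 summit stood just upstream of the start in both libraries. It lay at base 74033529 in replicate 1, 149 bp before the start, and at base 74033510 in replicate 2, 168 bp before it. Its score was 49.1 in replicate 1 and 70.4 in replicate 2. These are percentiles 99.10 and 99.85, and the summit ranked 553 in the list of replicate 1 and 109 in that of replicate 2. By mean percentile, 99.48, it was first among the shared summits of the locus and took place 244 among the 47396 of the genome. With a limit of 200 bp between paired summits it came after a site 61.21 kb downstream, whose mean percentile was 99.72. By its distance from the start it lay upstream of the ACGTG and the CCAAT boxes shown above, with each distance counted from the gene's start in its own build.

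A second summit lay further upstream in each library. It was 873 bp before the start in replicate 1, with a score of 19.3 (percentile 83.4), and 982 bp before it in replicate 2, with a score of 28.1 (percentile 91.5). These were 109 bp apart, just past the limit of 100 bp, and so did not count as shared. Past the end of the gene the same thing occurred at weaker scores. Replicate 1 had a summit 269 bp after the end with a score of 6.95, and replicate 2 one 149 bp after it with 6.76, which lay 120 bp apart. A shared summit followed 860 bp after the end in replicate 1 and 917 bp after it in replicate 2. It scored 3.21 in replicate 1 and 10.6 in replicate 2, at percentiles 4.34 and 58.9, so the libraries placed it very differently. Inside the gene only replicate 1 had a summit, 1561 bp from the start, with a score of 2.40 at percentile 1.01. Within 5 kb of the gene there were thus 5 summits in replicate 1 and 4 in replicate 2, of which 2 were shared.

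**Figure D1:**
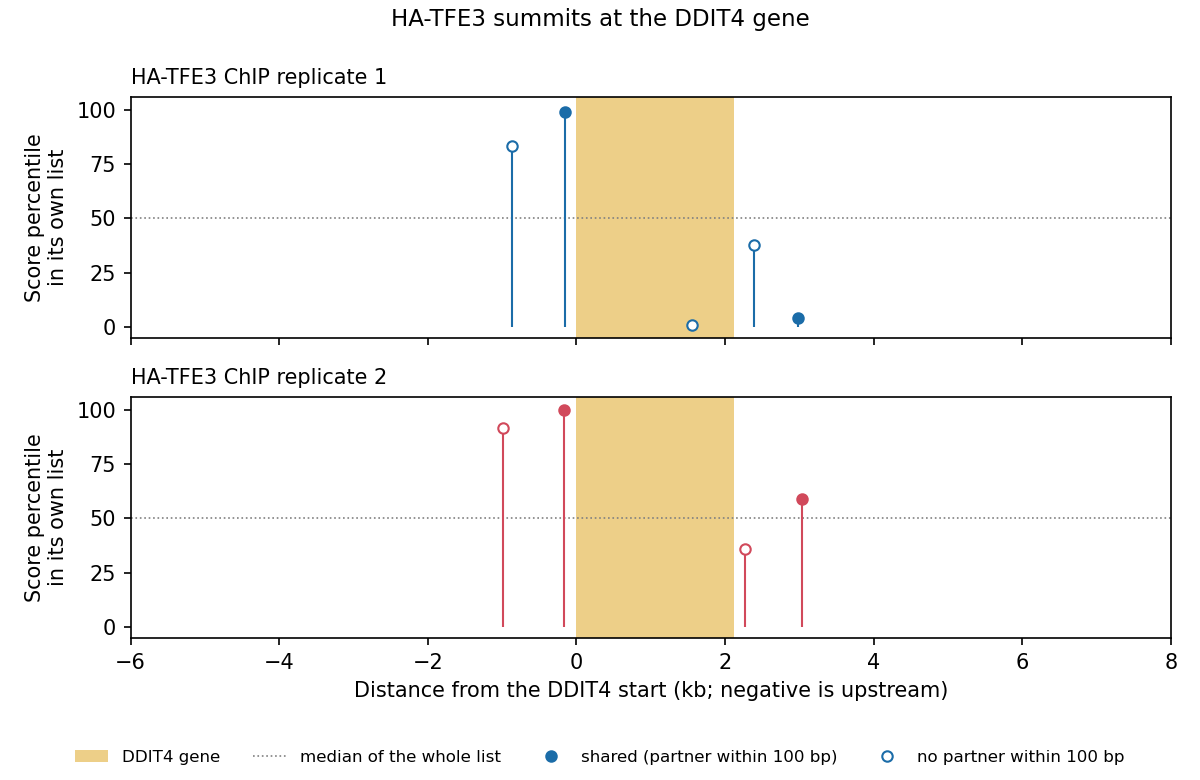
Summits at the DDIT4 gene in each ChIP library, by distance from the gene's start in kb (x axis) and score percentile in the library's own list (y axis); filled points have a partner within 100 bp in the other list and open points do not. The summit at percentiles 99.10 and 99.85 stands just before the start in both libraries, and the only point inside the gene is the one at percentile 1.01 in replicate 1.

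Summits of high rank stood at the gene and at several places far from it. Of the 28 shared summits, 5 were at or above the 90th percentile in both lists, which is 17.9%, against 9.11% of all shared summits. The dense window alone held 4 such summits among its 23. The 4 other fullest windows, set beside it below, held 5 of 25, 3 of 23, 2 of 20 and 5 of 20. The locus was chosen for its density, and the difference from all shared summits was not tested. The 5 of the locus lay 57.91 kb upstream, 0.15 kb upstream, and 24.22, 45.92 and 58.23 kb downstream of the start of DDIT4. The gaps between them were 57.8, 24.4, 21.7 and 12.3 kb. With a limit of 200 bp there were 6 of 31 (19.4%, against 9.05% of all shared summits), and the added site, 61.21 kb downstream, lay 2.98 kb from the one at 58.23 kb.

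Downstream of DDIT4, the shared summit at base 74091909, 58.23 kb from the start, scored 50.9 in replicate 1 and 60.5 in replicate 2. It ranked 461 in replicate 1 and 276 in replicate 2. The shared summit at base 74057894, 24.22 kb downstream, scored 64.6 in replicate 1, the highest of that library in the locus, and 46.1 in replicate 2. By mean percentile these came next among the shared summits of the locus, at places 264 and 443 of the genome's shared summits, close behind the summit at the start of DDIT4. The summit at base 74079595, 45.92 kb downstream, scored 38.2 in replicate 1 and 39.2 in replicate 2. The one at base 73975768, 57.91 kb upstream and the only shared summit of the range before the dense window, scored 40.2 in replicate 1 and 30.1 in replicate 2.

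The next 5 by mean percentile completed the first 10. Base 74023574, 10.10 kb upstream of the start, scored 23.1 in replicate 1 and 47.5 in replicate 2, so it stood at percentile 88.1 in replicate 1 and 98.4 in replicate 2. Base 74114790, 81.11 kb downstream, scored 37.0 in replicate 1 and 23.1 in replicate 2. Base 74057168, 23.49 kb downstream, scored 24.0 in replicate 1 and 32.9 in replicate 2. It lay 726 bp before the strong summit at 24.22 kb, as its weaker neighbour in both libraries. Base 74124223, 90.54 kb downstream, scored 25.01 in replicate 1 and 24.5 in replicate 2. Base 74068446, 34.77 kb downstream, scored 26.8 in replicate 1 and 20.9 in replicate 2. All 10 stood at or above percentile 80 in both lists.

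The remaining 17 shared summits away from the gene had scores from 3.46 to 20.8 in replicate 1 and from 2.01 to 20.4 in replicate 2. The lowest lay 61.71 kb downstream, at percentile 6.07 in replicate 1 and 0.76 in replicate 2. In all, 5 shared summits (17.9%) were below the 50th percentile in both lists, against 24.4% of all shared summits. The mean percentile of a shared summit over both lists had a median of 69.2 in the locus, against 59.5 over the genome. For the 7 shared summits upstream of DDIT4 it had a median of 60.4, and for the 21 downstream 72.7, and the ranges, 31.9 to 99.5 upstream and 3.42 to 99.4 downstream, overlapped.

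**Figure D2:**
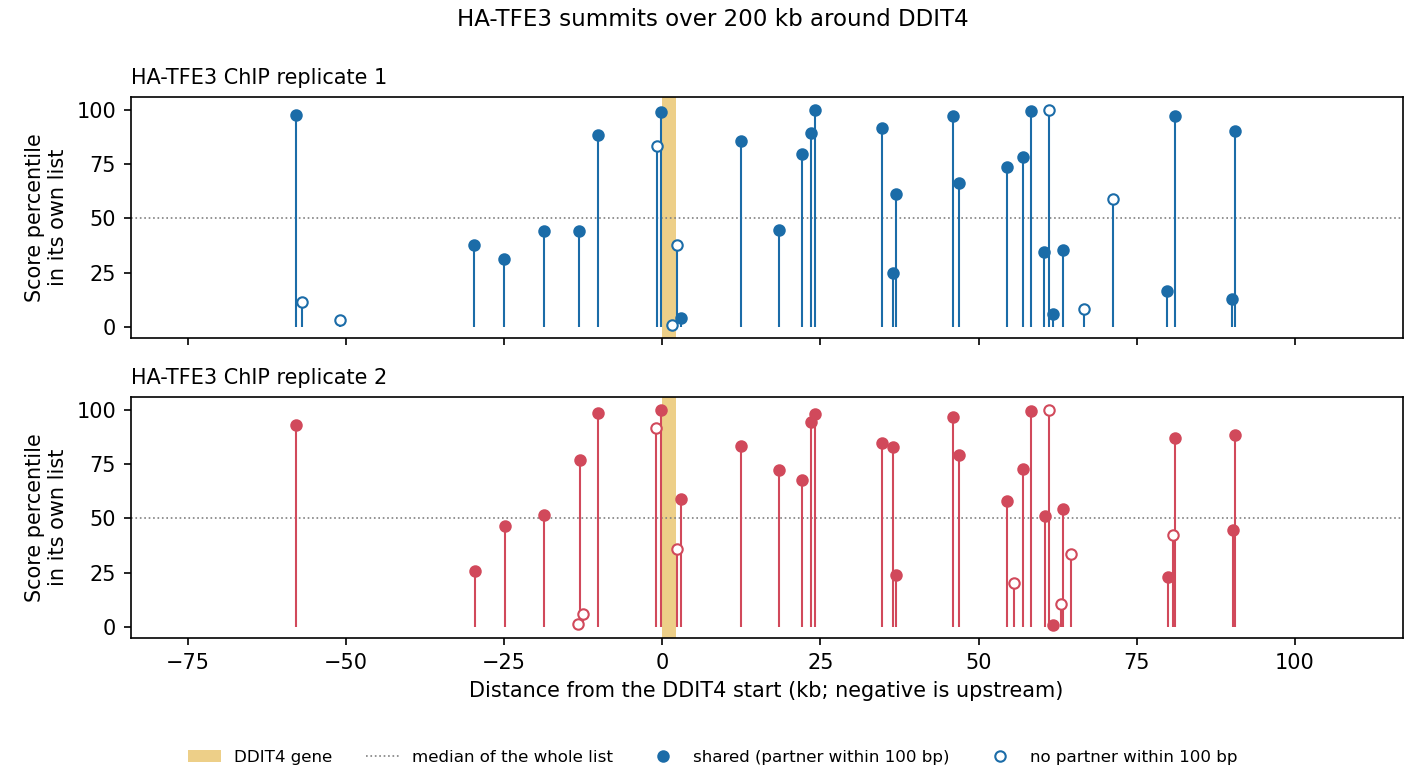
All summits of the locus in replicate 1 (upper panel) and replicate 2 (lower panel), by distance from the DDIT4 start in kb (x axis) and score percentile in their own list (y axis), with the gene shaded and the list median dotted. Shared summits run from 57.91 kb upstream to 90.54 kb downstream, and 5 of them reach the 90th percentile in both panels; the open points at percentiles 99.8 and 99.7 near 61 kb are the site whose summits lay 104 bp apart, past the limit of 100 bp.

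The pairing limit split one of the strongest sites. At 61.21 kb downstream, replicate 1 had a summit with a score of 62.0, ranking 153 in its list at percentile 99.8. Replicate 2 had a summit at 61.10 kb with a score of 62.6, ranking 226 at percentile 99.7. They were 104 bp apart and so counted as a summit of a single library each. Of the 17 summits without a partner, 6 were of this kind, 3 in each list that faced each other at 104, 109 and 120 bp. A limit of 200 bp gave 31 shared summits in place of 28 in the locus, and 50027 in place of 47396 over the genome. The widest pair that counted as shared was 64 bp apart, at 60.38 kb downstream, so no pair lay between 64 and 104 bp.

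The other 11 summits without a partner were mostly weak. The 5 of replicate 1 lay 704 to 6996 bp from the nearest summit of replicate 2 and scored 2.40 to 10.1, at percentiles 1.01 to 58.9. The 6 of replicate 2 lay 248 to 1271 bp from the nearest summit of replicate 1 and scored 2.44 to 7.32, at percentiles 1.43 to 42.4. The share of locus summits with a partner was 77.8% in replicate 1 (28 of 36, 95% exact binomial interval 60.8 to 89.9) and 75.7% in replicate 2 (28 of 37, interval 58.8 to 88.2). Over the genome 76.1% of the summits of replicate 1 and 65.2% of those of replicate 2 had a partner. The locus was chosen by its shared summits, so its shares were not tested against those of the genome. Both intervals rest on the same 28 pairs. Only counting error enters them, and summits close to each other may not be independent.

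Paired summits of the locus lay 7 to 64 bp apart with a median of 24 bp, against a median of 26 bp over the genome. In 25 of the 28 pairs the distance was at most 50 bp, in 15 at most 25 bp, and in 0 was it the same base. The summit of replicate 2 had the higher coordinate in 20 pairs and the lower in 8. The same split was not counted over the genome, so it cannot be called particular to the locus.

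The libraries ranked the shared summits of the locus in a similar order. Spearman's rank correlation of the scores was 0.846 across the 28 pairs, against 0.729 across all 47396. Both are descriptions across summits that share their libraries. The percentile was higher in replicate 2 for 15 pairs and in replicate 1 for 13, and over the genome it was higher in replicate 2 for 57.2% of shared summits. The absolute difference between the libraries had a median of 10.1 percentile points in the locus and 11.7 over the genome.

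Of the 28 pairs, 5 differed by over 30 points. The share of all shared summits past that cut was not counted, so this may be ordinary. The largest differences were at the shared summit past the end of DDIT4, given above, and at a neighbouring couple 36.43 and 36.94 kb downstream. In this couple, 503 bp from each other, the first site scored 5.65 in replicate 1 and 19.96 in replicate 2, and the second scored 11.1 in replicate 1 and 5.39 in replicate 2. Their order thus turned round between the libraries.

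**Figure D3:**
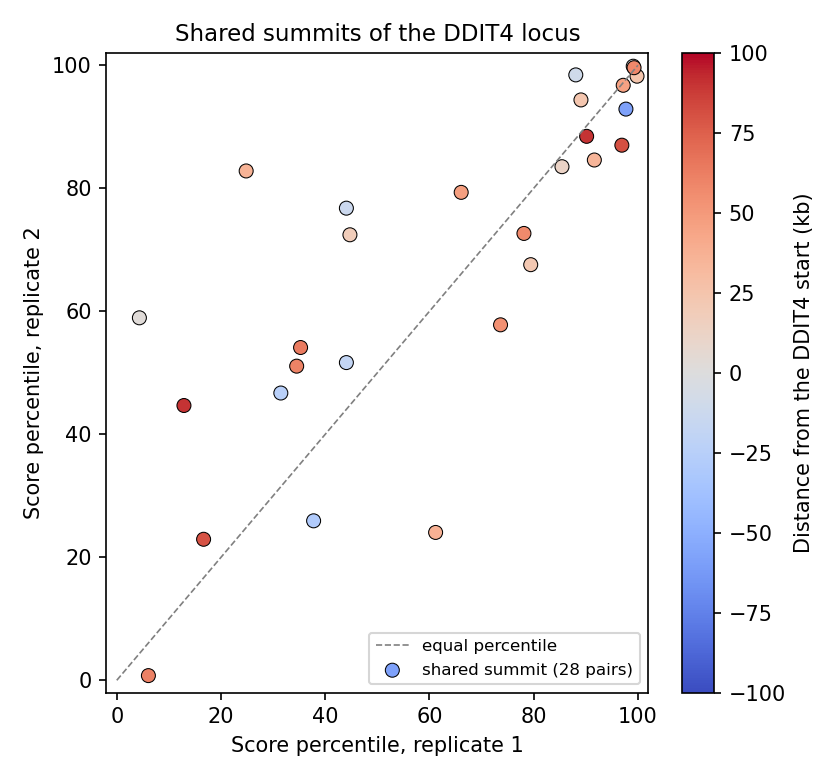
Score percentile of each of the 28 shared summits in replicate 1 (x axis) and replicate 2 (y axis), coloured by distance from the DDIT4 start in kb, with the dashed line at equal percentiles. The points of the highest rank gather in the upper right corner from both sides of the gene, and the 5 pairs that differ by over 30 points lie well off the line.

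Summits followed each other closely, mostly at distances over 1 kb. The median distance from one shared summit to the next was 3125 bp in the locus, against 17712 bp over the genome, a difference that the choice of a dense locus brings with it. Of the 27 distances in the locus, 3 were at most 1 kb, or 11.1%, against 8.71% over the genome. These formed 3 couples of shared summits, 23.49 to 24.22, 36.43 to 36.94 and 90.12 to 90.54 kb downstream of the start, with spacings of 726, 503 and 421 bp. The other 22 shared summits stood more than 1 kb from any other. With a limit of 200 bp the facing summits at 104, 109 and 120 bp count as shared. Then 7 of 30 distances were at most 1 kb, or 23.3%, against 9.32% over the genome. The choice of a dense locus bears on the shares at both limits, and they were not tested. In the replicate 2 list alone the median spacing was 1467.5 bp, and in that of replicate 1 it was 2526 bp, since each also holds summits that did not pair within 100 bp.

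Along the locus, shared summits covered 148.5 kb from the first to the last. Of its 20 bins of 10 kb, 7 held none, and the fullest held 5, between 56.32 and 66.32 kb downstream of the start of DDIT4. The longest distance without a shared summit, 28.24 kb, lay between the summit 57.91 kb upstream and the one 29.66 kb upstream of the gene. Of the 28 shared summits, 7 lay upstream of DDIT4, 0 inside it and 21 downstream. The range is longer downstream, as it runs from -83.68 to 116.32 kb relative to the start. Within 10 kb of the start there were 2, within 20 kb 7 and within 50 kb 17. No summit of either list lay in the first 25.7 kb or the last 25.8 kb of the range. Outside it, the nearest summits were a shared one 16071 bp before its start, with scores of 14.9 in replicate 1 and 17.4 in replicate 2, and a shared one 2560 bp past its end, with 7.07 in replicate 1 and 8.01 in replicate 2, each distance taken in replicate 1.

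The dense window of 100 kb held 23 of the 28 shared summits, 27 summits of replicate 1 and 31 of replicate 2. This was 14.7 times the mean of 1.56 shared summits per window. Only 3 of 30357 windows, 0.00988%, held at least as many, and that count is what chose the locus. The windows directly before and after it held 6 and 5. With the grid of windows moved by 50 kb, the window that held DDIT4 had 9 shared summits and the one after it 19. Over the 500 kb on either side of the dense window, the counts ran from 1 to 13 per window, all below that of the DDIT4 window, and 9 of these 10 windows were above the genome's mean.

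**Figure D4:**
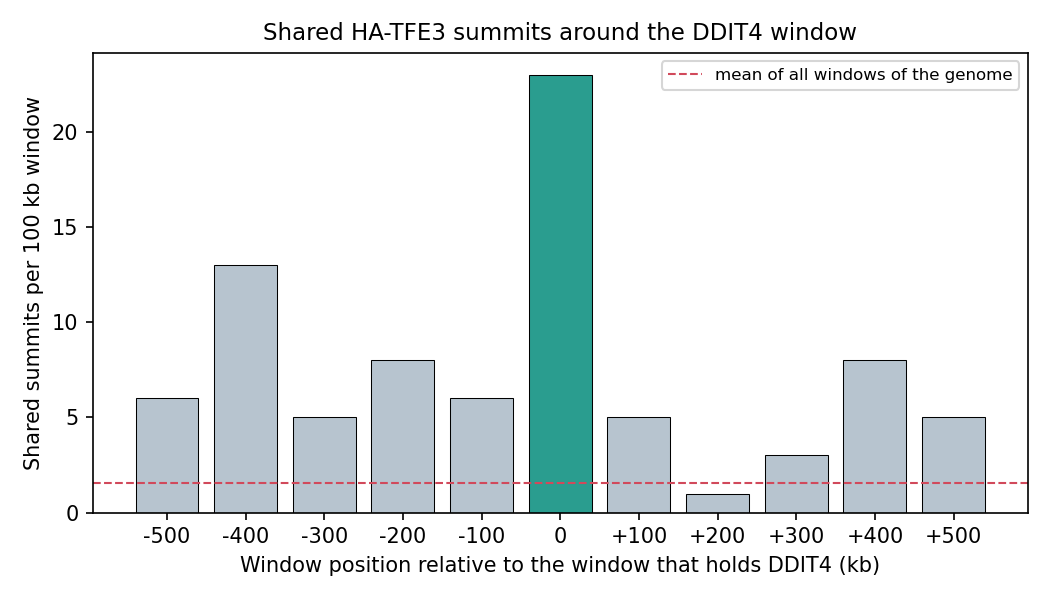
Shared summits in each window of 100 kb (bars) by position relative to the window that holds DDIT4, in kb, with the genome's mean of 1.56 dashed. The DDIT4 window holds 23 and its neighbours 6 and 5, and the fullest of the flanking windows holds 13.

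The DDIT4 window was set beside the 4 other windows among the 5 fullest of the genome. It had 2 of 22 distances between shared summits at most 1 kb (9.09%) at the limit of 100 bp, and 6 of 25 (24.0%) at 200 bp. The window from base 300001 of chromosome 20 had 7 of 24, those from bases 76300001 and 43200001 of chromosome 17 had 4 of 22 and 7 of 19, and the one from base 30600001 of chromosome 22 had 4 of 19. At 200 bp these 4 windows had 8 of 25, 4 of 24, 7 of 19 and 4 of 20 in that order, so the place of the DDIT4 window among them depended on the limit. The median spacing was 3048.5 bp in the DDIT4 window and 3210.5, 2759, 2831 and 2420 bp in the others in that order. The median of the mean percentile was 65.7 in the DDIT4 window and 68.4, 67.6, 46.5 and 72.3 in the others. These differences were not tested, since all 5 windows were picked for their density.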

How the data were processed

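The authors deposited, for each of the 2 HA-TFE3 ChIP libraries, a list of 1 bp summits, each named and scored. The build is hg19 according to the submitters' processing notes. How reads were aligned, how peaks were called and whether the input DNA served as background are details not given in the sources used here. Since no read counts are listed, depth is unknown. A caller's threshold and the depth both set how many summits are listed.

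Chromosomes 1 to 22 and X were kept, with positions 1-based. Pairing was by mutual nearest position within 100 bp, with the position of a pair taken from replicate 1. The pairing code was run on simulated lists of widely spaced summits, with every shift inside the limit. That run covers neither close neighbours nor shifts past the limit, which this locus has, so it does not show how well pairing works here. Groups were runs of at least 2 shared summits with gaps of at most 1 kb. The locus and the gene lists were chosen with earlier results of these data known. Named were the shared summits within 5 kb of DDIT4 and the 10 with the highest mean percentile. The site at 61.21 kb, the summits without a partner and the couples were singled out after their values were seen, and the motifs after the promoter was seen. The planned count of summits at other mTORC1 regulators needed hg19 gene positions and was not run. Promoters were those of 300 bases in the RefSeq table, of which the 250 before the start were searched, and DDIT4 was matched by symbol. Python 3.11.15, NumPy 2.4.6, pandas 2.3.3, SciPy 1.17.1 and matplotlib 3.10.9 were used.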

Additional observations from a re-analysis of the deposited data

How the results depend on the processing

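No paired analysis was possible because the input DNA library has no summit list and the 2 ChIP libraries form a single group. Of 50 values under the alternatives, 24 stayed within 1.5 times the reported count or within the SD between the libraries, and 26 did not. This SD rests on 2 libraries only. For some values with a single library the outcome was therefore fixed in advance, and the tally is no measure of robustness. Limits of 50, 200 and 500 bp gave 25, 31 and 31 shared summits in place of 28. The mean share with a partner was 68.5, 84.9 and 84.9% in place of 76.7%, and the median spacing 4107 bp at 50 bp in place of 3125 bp. Limits of 200 and 500 bp gave 6 groups each in place of 3, and 200 bp made the site 61.21 kb downstream the first of the locus by mean percentile. Summits above the median score gave 15 shared summits (12 in the dense window), a share of 70.7%, a spacing of 9532 bp, a median percentile of 91.7 and 1 group. The 10000 highest-scoring gave 9 (6 in the window), 78.4%, 17007.5 bp, 95.3 and 1 group. These choices keep fewer summits by construction. Gaps of 500 bp and 2 kb gave 1 and 7 groups. With the grid moved by 50 kb the fullest window at the locus held 19, at place 6 of all windows in place of 2, and the window with DDIT4 itself held 9. With each library alone, the window held 27 to 31 summits, the spacing was 1467.5 to 2526 bp, the median percentile 60.1 to 67.6, and the groups 7 to 10. The nearest summit lay at -168 to -149 bp from the DDIT4 start with each library alone, and at -168 bp by the positions of replicate 2. Without read counts, the lists do not show how firmly any single summit was measured.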
